A study of Mus musculus with 24 samples.

Results

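The comparison described here is between fumonisin B1-exposed livers of mice with and without the liver X receptors (LXR). Its members are the 12 arrays whose labels give fumonisin B1 (FB1) as the treatment, 6 from LXR_KO mice and 6 from LXR_WT mice, out of 24 arrays in the study. The other 12 arrays, 6 of each genotype given water, served to ask where the genotype difference was of another size without the toxin. All mice were females of a mixed sv129/C57 background and 8 weeks old. WT FB1 and KO FB1 mice received 10 mg FB1 per kg body weight per day for 1 month, and WT control and KO control mice received water. The KO mice lack LXR alpha and LXR beta by their labels, in no stated cell type only, so a difference in liver RNA can start in any cell or organ. Which part of each gene was deleted, and how sv129 and C57 segments were shared between the genotypes, are given in no label or header used here.

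LXR alpha (Nr1h3) and LXR beta (Nr1h2) are nuclear receptors that bind oxysterols and, paired with retinoid X receptors, switch on genes of sterol export, fatty acid synthesis and phospholipid remodelling. In liver they drive Srebf1, the factor that turns on the fatty acid synthesis enzymes, and in macrophages they restrain inflammatory genes and maintain the identity of resident cells. FB1 is a Fusarium mycotoxin of maize that blocks the ceramide synthases, so that sphinganine builds up and complex sphingolipids fall, and liver and kidney are its main targets.

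Total liver RNA was labelled with a single dye and hybridised to Agilent mouse gene expression arrays. A level below is the log2 of a probe's background-subtracted signal minus the 75th percentile of its array, so 0 marks that percentile. Levels of different genes are not compared, since each probe has its own brightness. Differences are KO minus WT in log2 units with a standard error (SE), and adjusted p-values come from limma with Benjamini-Hochberg adjustment over 22068 genes, with 6 arrays in every group. A gene is called different when its adjusted p is under 0.05. The design states 6 mice per group, so arrays stand for mice. Between 58.7% and 64.5% of spots lay well above background on an array, no spot was saturated, and arrays of one FB1 group correlated at 0.988 to 0.994. Alb, the albumin gene that marks hepatocytes, had levels of 9.53 to 9.80 in WT FB1 and 9.25 to 9.76 in KO FB1 livers.

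The targeted genes were checked first. Nr1h3 was measured at 4.71, 4.85 and 4.95 (lowest, median and highest of the 6 arrays) in WT FB1 livers and at -5.12, -4.53 and -2.56 in KO FB1 livers. The groups lay far apart, and the difference was -9.17 ± 0.29 (SE; adjusted p = 1.01e-16 by limma), a 578-fold lower signal. A second Nr1h3 probe gave -8.85 ± 0.22. For Nr1h2 the brighter probe, at chr7:51805013-51805072 (mm9), gave 4.02, 4.13 and 4.22 in WT FB1 and 0.31, 0.47 and 0.80 in KO FB1 livers, a difference of -3.62 ± 0.08. A probe farther upstream in Nr1h2, at chr7:51807934-51808069 (mm9, minus strand), differed by 0.06 ± 0.09 and was not called. The check of the Nr1h2 label therefore rests on the brighter probe, and the upstream probe gave like signals in both genotypes. Which RNA gave that signal in KO livers was not tested. The 60 bases of the upstream probe are shown as the array design gives them.

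Nr1h2 upstream probe: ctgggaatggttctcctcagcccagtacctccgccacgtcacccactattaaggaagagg

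Loss of LXR went with a broad difference in FB1-exposed liver. Of 22068 genes, 7244 (32.8%) were called, 3212 higher (14.6%) and 4032 lower (18.3%) in KO FB1 than in WT FB1 livers. The direction split depended on the values used: 44.3% of calls were higher here, 50.6% after quantile normalisation and 52.6% with the authors' deposited values. At least 1.5-fold differences made up 3251 of these calls (14.7%), 1574 higher (7.13%) and 1677 lower (7.6%). The 6 KO arrays all lay above the 6 WT arrays for 1557 genes (7.06%) and all below for 1792 (8.13%). In livers given water, the same genotype comparison called 3354 genes (15.2%), 1589 higher (7.2%) and 1765 lower (8.0%). Of these, 1825 (8.27%) differed at least 1.5-fold, 790 higher (3.58%) and 1035 lower (4.69%). These comparisons share no array, but both were tested in the same fit. That fit shares its estimate of each gene's spread, so the calls of the comparisons are not independent. Of the genes called, 2126 were called with the same sign in both comparisons, and 63 with opposite signs. The 2126 are 29.3% of the calls with FB1 and 63.4% of the calls without it. No share expected by chance was worked out for this overlap. The median size of the difference over all genes was 0.21 with FB1 and 0.14 without.

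The difference of the 2 genotype effects was then tested itself. It was called for 2051 genes (9.29%), 983 (4.45%) with a KO minus WT value more positive with FB1 and 1068 (4.84%) with one more negative. At least a 1.5-fold change of the genotype effect was found for 1300 of them (5.89%), 726 more positive (3.29%) and 574 more negative (2.6%). Of the 7244 genes called with FB1, 1700 were among them, and 351 genes were called in the difference alone or with the comparison without FB1. Here too the split depended on the values: 47.9% of these calls were more positive with FB1 in the fit used here, 52.4% after quantile normalisation, and 58.6% with the authors' deposited values, a table that covers 22016 genes. One KO FB1 array, replicate 3, lay nearest to the WT arrays for some hepatocyte gene lists, such as phase I and phase II xenobiotic enzymes. For female-biased genes replicate 5 lay nearest. Without KO FB1 replicate 3 the count of more negative values was 1760. Counts of list members below are to be set against the shares over all genes. With FB1 these were 14.6% higher and 18.3% lower, and without FB1 7.2% and 8.0%. For the change of the genotype effect they were 4.45% more positive and 4.84% more negative.

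**Figure D1:**
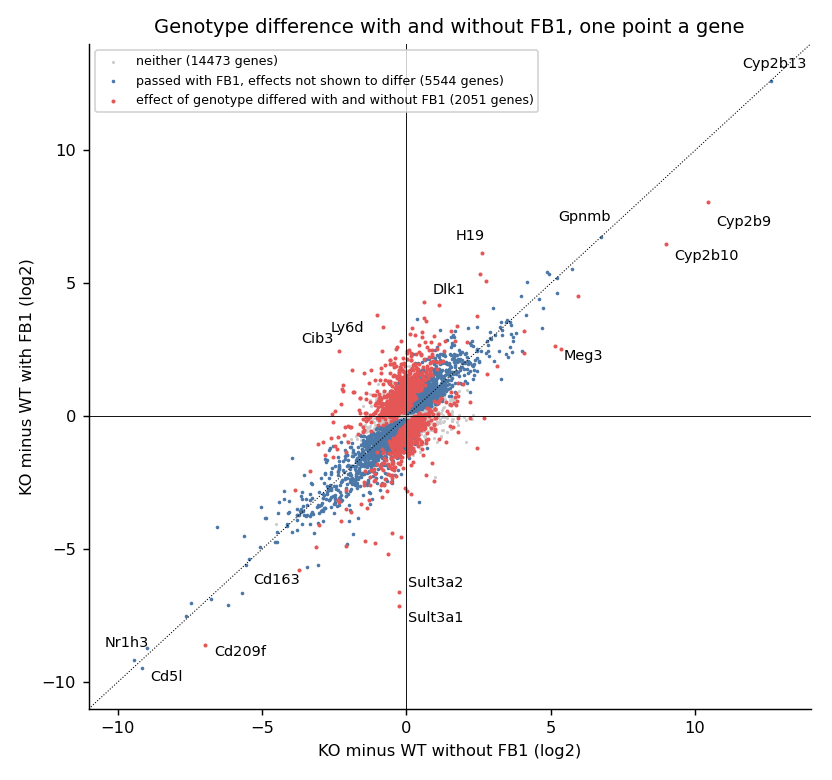
Genotype difference (KO minus WT, log2) of each of the 22068 genes without FB1 on the horizontal axis and with FB1 on the vertical axis, with the line of equal difference dotted. Red points are the 2051 genes whose genotype effect differed with and without FB1, blue points the other genes called with FB1. Cyp2b13, Gpnmb, Cd5l and Nr1h3 lie on the line, while Sult3a1 and Sult3a2 sit near 0 without FB1 and at -7.13 and -6.61 with it.

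The LXR target genes of lipid synthesis and remodelling were mostly lower in KO FB1 livers. Of 18 tested members 10 were lower and 0 higher, against 18.3% lower and 14.6% higher over all genes, and the list median was -0.40 against -0.03 for all genes. Scd1, the stearoyl-CoA desaturase that makes monounsaturated fatty acids, had levels of 6.03, 6.52 and 6.67 in WT FB1 and 2.63, 3.44 and 3.46 in KO FB1 livers. The groups did not overlap, and Scd1 was 8.71-fold lower (-3.12 ± 0.27, adjusted p = 4.96e-09). Srebf1 lay at 5.58, 6.03 and 6.28 in WT FB1 and at 3.90, 4.17 and 4.35 in KO FB1 livers, again with no overlap, and was 3.54-fold lower (-1.82 ± 0.23). Pltp, the phospholipid transfer protein, was 3.20-fold lower (-1.68 ± 0.16). Fasn, the fatty acid synthase, was 2.09-fold lower (-1.06 ± 0.23) and Scd2, a second desaturase, 3.12-fold lower (-1.64 ± 0.24). Mylip, which marks the LDL receptor for breakdown, differed by -1.10 ± 0.19, and Mlxipl, the carbohydrate-responsive ChREBP, by -0.83 ± 0.12. Lpcat3, which loads polyunsaturated chains on phospholipids, was also lower, by the smaller value of -0.46 ± 0.11, and its arrays overlapped. Cyp7a1, the rate-limiting enzyme of bile acid synthesis, ranged from 3.15 to 4.61 in WT FB1 and from 1.36 to 3.81 in KO FB1 livers. Its call (-1.34 ± 0.50, adjusted p = 0.0442) was lost under 15 of 36 alternative analyses.

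The same list had 8 members lower and 0 higher in livers given water, with a median of -0.49. Only Lpl and Mlxipl of the 18 had a genotype effect that differed with and without FB1. Mlxipl differed by -0.25 ± 0.12 without the toxin, which was not called. Lpl, the lipoprotein lipase that adult hepatocytes make little of, was lower without FB1 and not called with it. Without FB1 it was 1.65 lower in KO than in WT livers on the log2 scale (-1.65 ± 0.27, adjusted p = 9.78e-05). With FB1 its levels were 2.92, 3.63 and 4.60 in WT and 3.69, 4.07 and 4.33 in KO livers, so that the groups overlapped and the difference was 0.25 ± 0.27 (adjusted p = 0.508). The change of the genotype effect was 1.90 ± 0.38 (adjusted p = 0.0039). Of 5 other Lpl probes, 2 gave like values, 2 were called higher with FB1 (1.12 ± 0.40 and 1.23 ± 0.35, against -0.57 and -0.09 without), and 1 showed neither difference, so the values with FB1 rest on the probe.

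Sterol export genes differed less uniformly. Of 9 tested members, 1 was higher and 3 lower with FB1. Abcg5 and Abcg8 form the transporter that moves sterols from hepatocytes into bile. Abcg5 had levels of 4.16, 4.84 and 5.12 in WT FB1 and 3.26, 3.57 and 4.07 in KO FB1 livers, with no overlap, a difference of -1.12 ± 0.19 (adjusted p = 0.000101). Abcg8 differed by -1.18 ± 0.26. Neither was called without the toxin (0.06 ± 0.19 and 0.15 ± 0.26), and both genotype effects differed with and without FB1 (-1.17 ± 0.27 and -1.33 ± 0.36). Abca1, the exporter that builds HDL, was lower by only -0.22 ± 0.06 and lost its call under 2 of 36 alternatives. Abcg1, a macrophage and hepatocyte cholesterol exporter, was 0.38 ± 0.18 with FB1 (adjusted p = 0.104) and -0.67 ± 0.18 without it (adjusted p = 0.0104). That change of 1.05 ± 0.25 was called. Abcb4, the phosphatidylcholine floppase of bile, was the member that was higher (0.57 ± 0.12).

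**Figure D2:**
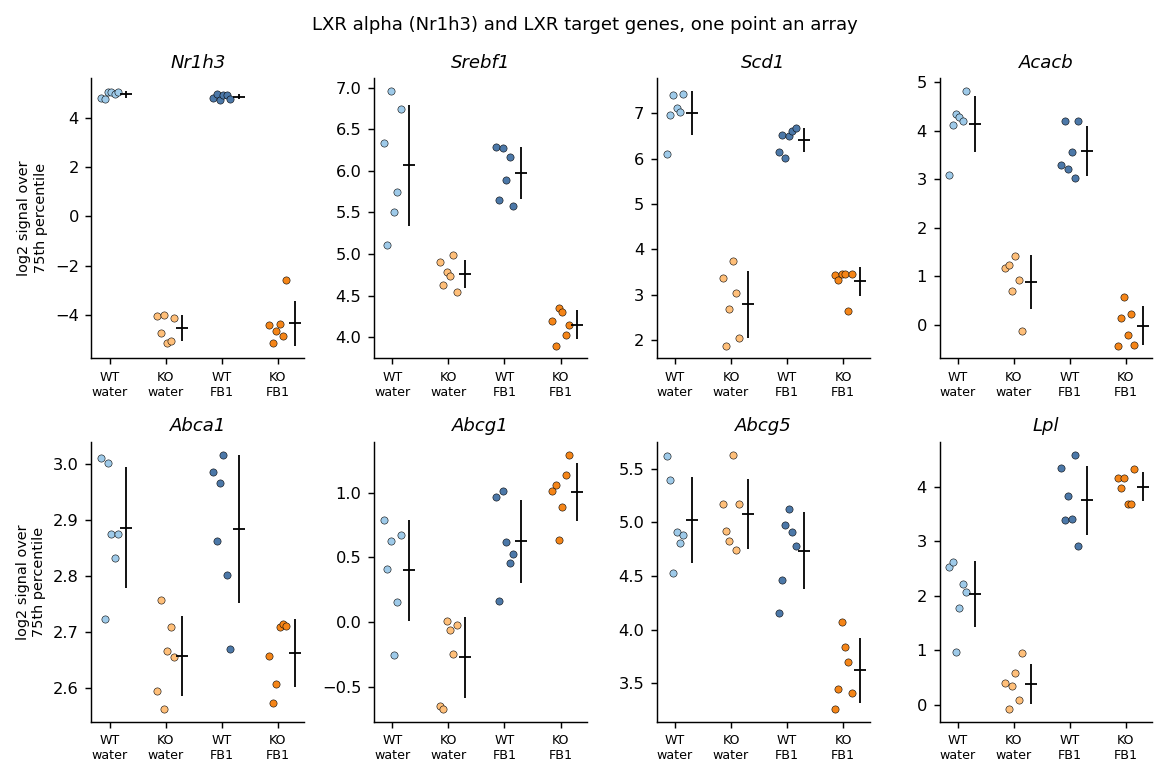
Levels of Nr1h3 and 7 LXR target genes (log2 signal over the array's 75th percentile) in the 4 groups, 1 point an array, with the mean and standard deviation of 6 arrays beside them. Srebf1, Scd1 and Acacb are separated by genotype with and without FB1, Abcg5 only with FB1, and Lpl, by its brightest probe, without FB1 but not with it.

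Among the 27 other genes of fatty acid and triglyceride synthesis tested, 12 were lower and 3 higher in KO FB1 livers, with a median of -0.50. Without FB1 12 were lower and 0 higher. Thrsp, a lipogenesis regulator also called Spot14, had levels of 4.37, 4.74 and 6.01 in WT FB1 and 0.46, 1.38 and 2.38 in KO FB1 livers. The groups were wholly apart and the difference was -3.61 ± 0.34, larger than without FB1 (-1.92 ± 0.34). Acss2, which makes cytosolic acetyl-CoA from acetate, was 4.33-fold lower (-2.11 ± 0.27). Acacb, an acetyl-CoA carboxylase, was 12.2-fold lower by its brightest probe (-3.60 ± 0.28), but a pair of other Acacb probes gave -0.41 ± 0.21 and -0.19 ± 0.13 and were not called.

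The 3 genes that were higher were Mogat1, an acyltransferase of triglyceride synthesis, and a pair of lipid droplet proteins, Cidea and Cidec, which fuse droplets in fat cells and in steatotic hepatocytes. Cidec had levels of -1.99, -1.46 and -1.09 in WT FB1 and -0.76, 0.60 and 2.05 in KO FB1 livers. The groups did not overlap, and Cidec was 4.33-fold higher (2.11 ± 0.31). Cidea was 3.59-fold higher (1.85 ± 0.28). Neither was called without FB1 (0.15 ± 0.31 and -0.23 ± 0.28), and the genotype effect of each differed with FB1 (1.97 ± 0.44 and 2.07 ± 0.39). Cidea and Cidec were picked out after their values were seen.

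Genes of cholesterol synthesis and uptake, the targets of SREBP2, did not move as a block. Of 25 tested, 6 were lower and 0 higher with FB1, with a median of 0.02. The lower count was not far from the 18.3% lower over all genes. Without FB1 4 were higher and 2 lower with a median of 0.24, against 7.2% higher and 8.0% lower over all genes. The lower members included enzymes of the last steps of the pathway. Sc5d, the lathosterol oxidase, differed by -1.20 ± 0.18, Tm7sf2, a sterol reductase, by -0.88 ± 0.14, and Ebp, a sterol isomerase, by -0.48 ± 0.08. Tm7sf2 and Ebp were not called without FB1 and had called changes of the genotype effect (-1.03 ± 0.20 and -0.38 ± 0.11).

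Bile acid synthesis and transport genes were lower for 9 of 20 members and higher for 1, with a median of -0.22. The 3 called members with the smallest p were Cyp7b1, Cyp27a1 and Akr1d1. Cyp7b1, the oxysterol hydroxylase, lay between 0.81 and 2.17 in WT FB1 and between -0.29 and 0.50 in KO FB1 livers. No arrays overlapped, and the difference was -1.43 ± 0.19. Cyp27a1, the sterol 27-hydroxylase, was 2.42-fold lower (-1.28 ± 0.16), and Akr1d1, the 5-beta-reductase shared by both routes, was 2.34-fold lower (-1.22 ± 0.14). None of the 3 was called without the toxin, where the values were 0.10 ± 0.19, -0.46 ± 0.16 and -0.18 ± 0.14. All 3 had a genotype effect that differed with FB1.

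Sphingolipid genes matter here because FB1 acts on their pathway. Of 34 tested, 7 were higher and 10 lower with FB1, and the median was -0.08. The count of lower members was 6 without KO FB1 replicate 6. Among the ceramide synthases, the enzymes that FB1 blocks, Cers2, the main liver form for very long acyl chains, had levels of 3.66, 3.77 and 3.91 in WT FB1 and 3.03, 3.21 and 3.39 in KO FB1 livers. The groups did not overlap, and the difference was -0.55 ± 0.10, against -0.08 ± 0.10 without FB1. Cers5, which makes palmitoyl ceramides, moved the other way, from -0.59, -0.37 and -0.21 in WT FB1 to -0.02, 0.18 and 0.45 in KO FB1 livers. Its arrays also did not overlap, with a difference of 0.57 ± 0.09 against -0.09 ± 0.09 without FB1. The changes of the genotype effect were called for Cers2 (-0.47 ± 0.14) and Cers5 (0.66 ± 0.13). Cers6 was nominally lower (-0.27 ± 0.10, adjusted p = 0.0464), a call lost under 20 of 36 alternatives, and Cers4 was not called (-0.09 ± 0.10).

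Sphk1, the sphingosine kinase, had levels of -1.85, -1.55 and -1.11 in WT FB1 and -0.33, 0.29 and 0.53 in KO FB1 livers. It was 3.38-fold higher with no overlap (1.76 ± 0.19), and it was also higher without FB1 (1.23 ± 0.19). Asah1, the acid ceramidase, was higher by 0.53 ± 0.09 with FB1 and by 0.56 ± 0.09 without. Smpd3, a neutral sphingomyelinase picked out after its values were seen, was higher with FB1 (1.61 ± 0.47) and lower without it (-1.48 ± 0.47), and its arrays overlapped with FB1.

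Xenobiotic enzymes held the largest rise of the comparison, that of Cyp2b13, and some of its large falls. Of 30 phase I genes tested 19 were lower and 5 higher, with a median of -0.54, and of 29 phase II genes 19 were lower and 5 higher, with a median of -0.40. Without FB1 the phase I count was 8 lower and 4 higher with a median of -0.03, and the phase II count was 3 lower and 1 higher. The 5 phase I genes that were higher were Cyp2b9, Cyp2b10, Cyp2b13, Cyp2c39 and Fmo5, and the Cyp2b family holds classical targets of the xenobiotic receptor CAR. Cyp2b13, a P450 of female mouse liver, reached no signal well above background in WT FB1 livers (-7.93 to -7.20) and lay between 3.88 and 5.37 in KO FB1 livers. Its signal, at chr7:26880905-26880964 (mm9), was at least 1626-fold higher (adjusted p = 2.5e-14), where the lower bound sets each WT array at the dimmest signal that counted as above background on it. Cyp2b9, another female-biased P450, had levels of -2.76, -1.89 and -1.25 in WT FB1 and 5.42, 6.26 and 6.49 in KO FB1 livers. Cyp2b10, the P450 best known as a CAR target, had levels of -1.47, -0.69 and 0.20 in WT FB1 and 5.19, 5.91 and 6.25 in KO FB1 livers. The groups were far apart for both, at 267-fold for Cyp2b9 (8.06 ± 0.43) and 89.6-fold for Cyp2b10 (6.49 ± 0.35). A second Cyp2b10 probe gave 3.99 ± 0.39.

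The same P450 genes differed in livers given water. Without FB1 the genotype difference was 10.44 ± 0.43 for Cyp2b9 and 8.99 ± 0.35 for Cyp2b10, and for each it was smaller with FB1, by -2.38 ± 0.60 and -2.50 ± 0.49. The smaller difference came from both sides. Cyp2b9 medians were -3.25 in WT control and -1.89 in WT FB1 livers, and 7.30 in KO control and 6.26 in KO FB1 livers. For Cyp2b13 the change was -0.04 ± 0.76 and was not called. Cyp2c39 was 16.7-fold higher with FB1 (4.06 ± 0.18) and higher without it too (4.74 ± 0.18). Nat8, an N-acetyltransferase that completes mercapturic acids, was 8.83-fold higher (3.14 ± 0.31).

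The lower phase II and P450 genes had another pattern. Sult3a1, a sulfotransferase of female mouse liver, had levels of 7.24, 7.69 and 8.05 in WT FB1 and -1.13, 0.50 and 1.75 in KO FB1 livers. It was 140-fold lower in the KO FB1 group with no overlap (-7.13 ± 0.29, adjusted p = 1.34e-14). Without FB1 it had medians of 8.08 in WT and 7.70 in KO livers, a difference of -0.25 ± 0.29 that was not called. The neighbouring copy Sult3a2 behaved alike, at -6.61 ± 0.37 with FB1 and -0.25 ± 0.37 without. For Sult3a1 the change of the genotype effect, -6.88 ± 0.41, had an adjusted p of 8.02e-10. Cyp3a44 differed by -4.88 ± 0.37 with FB1 and -2.09 ± 0.37 without, and that change was called (-2.79 ± 0.53). Gstt1, a glutathione transferase, was lower by -0.80 ± 0.09.

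**Figure D3:**
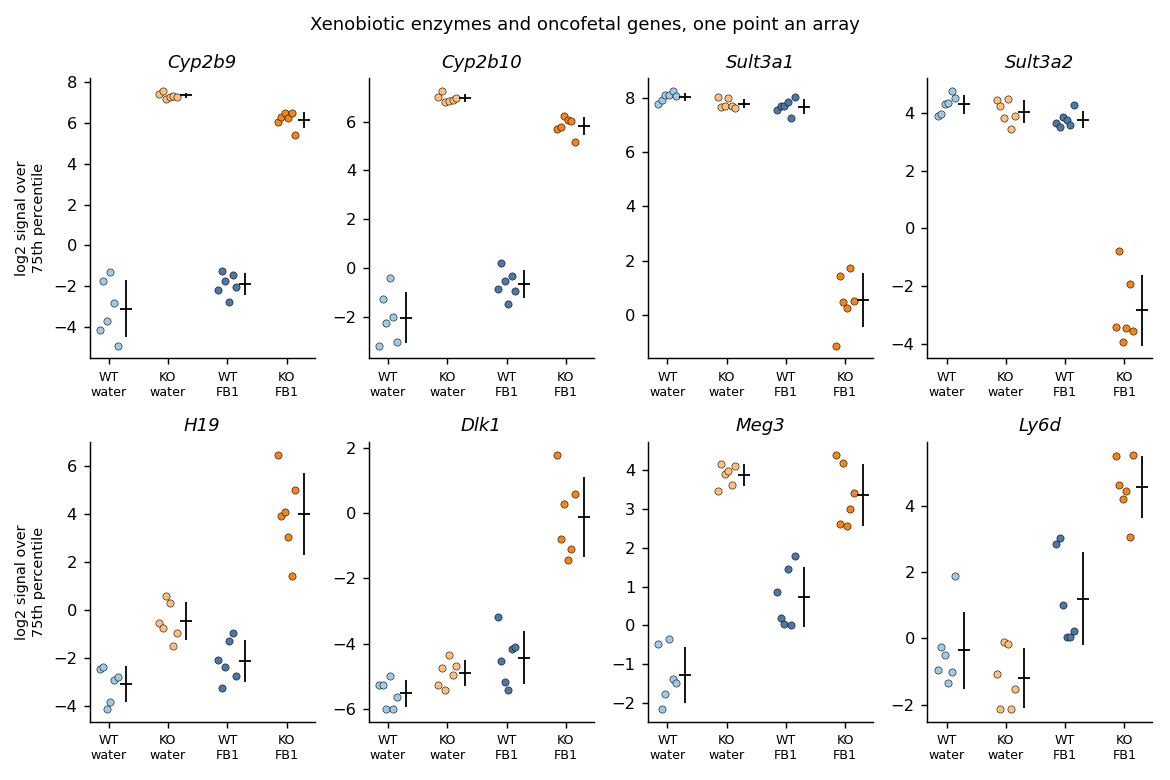
Levels of 4 xenobiotic enzyme genes and 4 oncofetal genes (log2 signal over the array's 75th percentile) in the 4 groups, 1 point an array, with the mean and standard deviation of 6 arrays. Cyp2b9 and Cyp2b10 are high in KO livers with and without FB1, whereas Sult3a1 is near 8 in 3 groups and between -1.13 and 1.75 in KO FB1, and Dlk1 and Ly6d are highest in KO FB1.

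Many of these enzymes are female-biased in mouse liver, a bias set by the continuous growth hormone pattern of females. Of 26 female-biased genes tested, 21 were lower and 2 higher in KO FB1 than in WT FB1 livers, with a median of -1.52, against 6 lower and 2 higher without FB1 and a median of -0.43. Per array, the list median lay between -1.90 and -1.25 relative to the WT FB1 mean in the 6 KO arrays and between -0.28 and 0.20 in the 6 WT arrays. Cux2, a female-specific repressor, ranged from -0.35 to 0.73 in WT FB1 and from -4.89 to -1.87 in KO FB1 livers (-3.54 ± 0.73). Sult2a1, a bile acid and steroid sulfotransferase, differed by -4.44 ± 0.67 with a KO range from -0.67 to 4.12. Hamp2, a hepcidin paralog, was 9.97-fold lower (-3.32 ± 0.31). A1bg, a plasma glycoprotein, varied from -0.28 to 4.30 in WT FB1 livers, and its groups overlapped (-3.21 ± 0.97). The 2 members that were higher were Cyp2b9 and Cyp2b13.

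Male-biased genes did not show the opposite. Of 20 tested, 4 were higher and 6 lower, with a median of -0.07. Mup3, a major urinary protein, was lower (-1.52 ± 0.21), as was Nudt7, a peroxisomal hydrolase (-1.33 ± 0.17), while Cyp4a12a, a P450 of male liver, was higher by 2.02 ± 0.57 and was above background on 3 of 6 WT FB1 arrays. Of 17 genes of growth hormone signalling 8 were lower and 0 higher. Prlr, the prolactin receptor, had levels of 3.74, 4.18 and 4.57 in WT FB1 and 2.36, 2.66 and 3.04 in KO FB1 livers, and was 2.75-fold lower with no overlap (-1.46 ± 0.14). Ghr, the growth hormone receptor, was lower by -0.60 ± 0.11 and Stat5b, the factor that carries its signal, by -0.58 ± 0.09. Neither was called without FB1 (0.01 ± 0.11 and -0.13 ± 0.09). Socs2, a STAT5 target, was lower with FB1 (-2.05 ± 0.63) and without it (-2.36 ± 0.63).

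Genes of core hepatocyte metabolism were lower in part, and chiefly in the presence of FB1. Of 34 genes of gluconeogenesis, the urea cycle and amino acid breakdown, 16 were lower and 0 higher with FB1 (median -0.44), against 1 lower and 1 higher without it (median 0.07), and 14 had a more negative genotype effect with FB1. Without KO FB1 replicate 3, whose list median lay at 0.13 against -0.69 to -0.30 in the other 5 KO arrays, 26 were lower. Agxt, which detoxifies glyoxylate, had levels of 7.76, 7.88 and 8.06 in WT FB1 and 6.96, 7.15 and 7.57 in KO FB1 livers, with no overlap (-0.70 ± 0.09). Otc of the urea cycle was lower by -0.70 ± 0.10, and Amdhd1 of histidine breakdown by -0.89 ± 0.11. Genes that Wnt signals keep on around the central vein were lower for 8 of 17 members and higher for 1. Slc1a2, the glutamate carrier of these cells, was 21.0-fold lower (-4.39 ± 0.46) with no overlap, and -0.50 ± 0.46 without FB1. Glul, the glutamine synthetase that marks this zone, differed by -1.29 ± 0.28 with FB1 and 0.11 ± 0.28 without, and Oat, the ornithine aminotransferase, by -1.46 ± 0.28 and 0.59 ± 0.28. All 3 had a called change of the genotype effect. Cyp2e1, the ethanol-oxidising P450, was lower by -0.60 ± 0.12.

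Not every hepatocyte product was lower. Among 24 secreted proteins that define hepatocytes, 5 were lower and 0 higher with a median of -0.10, and Alb was not called (-0.09 ± 0.08). The count of 5 was 2 after quantile normalisation, and it ran from 3 to 9 when single arrays were left out, with 9 without KO FB1 replicate 3. The lower ones included Plg (-0.45 ± 0.11) and F9 (-0.41 ± 0.11), which make plasminogen and clotting factor IX. In bulk tissue, fewer cells of a type and less RNA per cell cannot be told apart, here and in every list below. Of 25 PPAR alpha targets and fatty acid oxidation genes, 2 were higher and 2 lower, fewer than the 14.6% and 18.3% over all genes. Bdh1, a ketone body enzyme, was higher by 0.36 ± 0.10.

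Acute phase genes, which hepatocytes make in inflammation, were lower for 9 of 22 members and higher for 2, with a median of -0.64. Crp had levels of 2.7, 2.88 and 3.23 in WT FB1 and -0.37, 0.36 and 1.65 in KO FB1 livers, and was 5.06-fold lower with no overlap (-2.34 ± 0.23). Apcs, serum amyloid P, was 4.66-fold lower (-2.22 ± 0.28). Orm3, an orosomucoid, varied widely, from 1.37 to 4.92 in WT FB1 and from -2.95 to 0.79 in KO FB1 livers (-3.81 ± 0.64). Crp and Apcs were also lower without FB1 (-1.74 ± 0.23 and -1.95 ± 0.28). WT FB1 replicate 2 had the highest list median, 0.83 above the WT mean.

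Stress genes moved in part. Of 24 NRF2 targets 7 were higher and 3 lower with FB1, where without it 0 were higher and 6 lower, and 8 had a more positive genotype effect with the toxin. Their higher count was 4 without KO FB1 replicate 6 and 11 after quantile normalisation. Gpx2, an epithelial glutathione peroxidase, had levels of -4.0, -3.52 and -3.25 in WT FB1 and -2.47, -1.67 and -0.49 in KO FB1 livers, and was 3.85-fold higher with no overlap (1.94 ± 0.22). Srxn1, which repairs peroxiredoxins, was 2.16-fold higher (1.11 ± 0.18), and Cbr3, a carbonyl reductase, 2.32-fold higher (1.21 ± 0.20). None of the 3 was called without FB1. Hmox1, the haem oxygenase, was lower in contrast (-1.33 ± 0.30), with and without FB1.

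Of 25 ATF4 and CHOP stress genes 6 were higher and 3 lower. Atf3 was 4.13-fold higher (2.05 ± 0.43), Ddit3, which encodes CHOP, was higher by 0.93 ± 0.14 with 1 probe and not called with another (0.08 ± 0.14), and the arginine carrier Slc7a1 by 0.87 ± 0.17. Of 25 endoplasmic reticulum chaperones and XBP1 targets 2 were higher and 3 lower, fewer than the 14.6% and 18.3% over all genes. Among them were Edem1, which clears misfolded proteins (-0.97 ± 0.11), and Atf6, a sensor of folding stress (0.58 ± 0.09). Of 25 p53 targets and apoptosis genes 10 were higher and 3 lower, with a median of 0.16. Tnfrsf10b, the TRAIL death receptor, had levels of -3.50, -2.84 and -2.05 in WT FB1 and -1.05, -0.33 and 0.03 in KO FB1 livers, 5.12-fold higher with no overlap (2.36 ± 0.22). It was higher without FB1 as well (2.04 ± 0.22). Bax, which opens the mitochondrial membrane, was higher with FB1 (0.64 ± 0.08) and not called without it (0.02 ± 0.08). Pmaip1, or Noxa, was 2.66-fold higher (1.41 ± 0.15), and Cdkn1a, the p21 inhibitor of the cell cycle, 2.08-fold higher (1.06 ± 0.31).

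Cell cycle genes varied between mice. Of 37 mitosis genes, with a list median of 0.57, 2 were higher, Kif4 and Bub1, with adjusted p-values of 0.0479 and 0.0483 that were lost under 20 and 17 of 35 alternatives. Per array, the mitosis list median ran from -0.36 to 1.33 in KO FB1 and from -0.81 to 0.67 in WT FB1 livers, so the mice within a group differed more than the group medians did. Of 34 genes of DNA replication and G1, 10 were higher and 1 lower, with a median of 0.30. That count of 10 ran from 6 to 17 when single arrays were left out, and was 17 without KO FB1 replicate 5. Mcm3, of the replicative helicase, had levels of 0.18, 0.54 and 1.27 in WT FB1 and 1.53, 2.29 and 2.33 in KO FB1 livers, and was 2.81-fold higher with no overlap (1.49 ± 0.17). It was higher without FB1 too (1.15 ± 0.17). Other Mcm3 probes gave 1.35 ± 0.21, 0.50 ± 0.17 and 0.55 ± 0.18 with FB1, and 1.15 ± 0.21, 0.43 ± 0.17 and 0.22 ± 0.18 without, so the size rests on the probe. Ccnd1, the G1 cyclin, was 2.57-fold higher (1.36 ± 0.25). Tk1, the thymidine kinase of S phase, was the lower member (-1.16 ± 0.19), and it was not called without FB1 (0.16 ± 0.19).

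Extracellular matrix genes were higher almost throughout. Of 36 tested 31 were higher and 2 lower with FB1, against a background of 14.6% higher, and the median was 0.97. Without FB1 5 were higher and 0 lower, with a median of 0.20, and 10 had a more positive genotype effect with FB1. The per-array list median was 0.62 to 1.18 in KO FB1 and -0.18 to 0.41 in WT FB1 livers, relative to the WT FB1 mean, with no overlap, and WT FB1 replicate 1 was the highest WT array. Timp1, an inhibitor of matrix proteases, had levels of -0.14, 0.29 and 0.45 in WT FB1 and 0.99, 1.19 and 1.58 in KO FB1 livers (0.99 ± 0.11). Lox, the enzyme that crosslinks collagen, was higher by 2.49 ± 0.30 and was above background on 5 of 6 WT FB1 arrays. Without FB1 its difference was 0.09 ± 0.30. Lum, a small proteoglycan, was 2.32-fold higher (1.22 ± 0.15), and Col1a1, of fibrillar collagen I, 3.25-fold higher (1.70 ± 0.32) with overlap of the groups. Mmp12 and Mmp13, matrix proteases of macrophages and stromal cells, were higher with FB1 (3.06 ± 0.38 and 3.33 ± 0.55) and without it (3.08 ± 0.38 and 4.70 ± 0.55). Mmp13 was above background on 4 of 6 WT FB1 arrays. Other Mmp12 probes gave 3.82 ± 0.33 and 2.84 ± 0.34 with FB1, and 2.13 ± 0.33 and 1.72 ± 0.34 without. How the Mmp12 difference compares with and without FB1 thus rests on the probe. Col1a1, Mmp12 and Mmp13 were picked out after their values were seen.

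Markers of the cells that lay down matrix were higher in part. Of 26 markers of hepatic stellate cells and fibroblasts, 12 were higher and 4 lower with a median of 0.39. Cygb, a stellate cell globin, had levels of 1.92, 2.40 and 2.80 in WT FB1 and 3.27, 3.64 and 3.77 in KO FB1 livers, 2.30-fold higher with no overlap (1.20 ± 0.13). Pdgfrb and Pdgfra, the PDGF receptors of these cells, were higher by 1.05 ± 0.13 and 0.83 ± 0.12. Of 29 cytoskeleton and annexin genes 17 were higher and 2 lower, and 12 had a more positive genotype effect with FB1. Anxa2, a membrane-binding annexin, had levels of 3.17, 3.45 and 4.27 in WT FB1 and 4.56, 5.63 and 5.94 in KO FB1 livers (1.82 ± 0.24), and was not called without FB1 (0.18 ± 0.24). Tubb2b, a beta tubulin, was higher by 2.49 ± 0.32, with 5 of 6 WT FB1 arrays above background. Anxa4 was higher by its brightest probe (0.57 ± 0.06) and lower by another (-0.62 ± 0.06), so its direction is not settled. The same holds for Tmsb10, a thymosin, whose brightest probe gave 1.03 ± 0.12 and another -1.07 ± 0.20.

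Of 18 markers of cholangiocytes and ductular cells 8 were higher and 3 lower. Ddr1, a collagen receptor, was 2.58-fold higher (1.37 ± 0.20) and Bicc1, an RNA-binding protein of ducts, 1.90-fold higher (0.92 ± 0.13), while Sox9, a factor of ductal cells, was higher by 1.17 ± 0.27 with overlapping arrays. Pkhd1, of the ductal cilium, was lower (-0.78 ± 0.13), and Prom1, a progenitor surface marker, differed by -2.48 ± 0.50 and was above background on 2 of 6 KO FB1 arrays. The keratins Krt7 and Krt19 were not called.

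The macrophage genes differed by subset. Of 17 Kupffer cell genes, the resident macrophages of liver sinusoids, 11 were lower and 1 higher in KO FB1 livers, with a median of -1.08. Leaving out any single array kept the lower count at 11. Without FB1 12 were lower and 1 higher, with a median of -1.10. Cd5l, a secreted protein of Kupffer cells and a known LXR target, had levels of 5.54, 5.92 and 6.05 in WT FB1 and -4.03, -3.86 and -2.65 in KO FB1 livers. It was 705-fold lower (-9.46 ± 0.28, adjusted p = 2.12e-17), the largest fall of the comparison. Clec4f, a lectin found on Kupffer cells, went from 4.31, 4.85 and 4.97 in WT FB1 to 1.02, 1.65 and 2.32 in KO FB1 livers (-3.15 ± 0.19). Vsig4, a complement receptor, was 15.4-fold lower (-3.94 ± 0.29), Timd4, a receptor for dying cells, 6.82-fold lower (-2.77 ± 0.24) and Folr2 4.66-fold lower (-2.22 ± 0.19). Marco, a scavenger receptor, was 4.50-fold lower (-2.17 ± 0.46).

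Cd163, the haemoglobin scavenger receptor, was the 1 member of the Kupffer list with a called, more negative genotype effect with FB1. By the probe used it differed by -5.80 ± 0.30 with FB1 and -3.72 ± 0.30 without, a called change of -2.08 ± 0.43. A second Cd163 probe gave -4.83 ± 0.25 with FB1 and -4.42 ± 0.25 without, so the size of the change rests on the probe. Cd209f, a lectin that was in no list, was not well above background on any KO FB1 array (-8.06 to -6.28) and lay between 0.61 and 1.78 in WT FB1 livers, at least 143-fold lower in KO. Ccl24, an eotaxin counted with the chemokines, was 29.9-fold lower (-4.90 ± 0.22) with FB1 and lower without it (-3.14 ± 0.22). The complement genes C1qa, C1qb and C1qc, which most macrophages express, were not called with FB1.

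Genes of recruited and lipid-associated macrophages mostly went the other way, but not all of them. Of 24 tested 14 were higher and 4 lower with FB1, with a median of 1.22. The KO arrays lay wholly above the WT arrays for 12 members and wholly below for 4. The lower count stayed at 4 under every alternative analysis, and the list members named below are among the higher ones. Without FB1 8 were higher and 8 lower with a median of 0.18, and 9 had a more positive genotype effect with FB1. Gpnmb, a marker of lipid-laden macrophages, was above background on 1 of 6 WT FB1 arrays, at -6.97, -5.61 and -2.79, and lay at 1.14, 1.29 and 1.60 in KO FB1 livers (6.74 ± 0.39). It was as high without the toxin (6.76 ± 0.39). Itgax, or CD11c, had levels of -2.54, -2.36 and -1.55 in WT FB1 and 0.33, 0.66 and 1.09 in KO FB1 livers, 7.13-fold higher with no overlap (2.83 ± 0.22). Trem2, a lipid receptor of these cells, was 5.07-fold higher (2.34 ± 0.29), and Cx3cr1, the fractalkine receptor of monocyte-derived cells, 12.3-fold higher (3.62 ± 0.29). Itgad, an integrin of macrophages that was in no list, was not above background on any WT FB1 array and was at least 8.52-fold higher in KO FB1 livers.

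**Figure D4:**
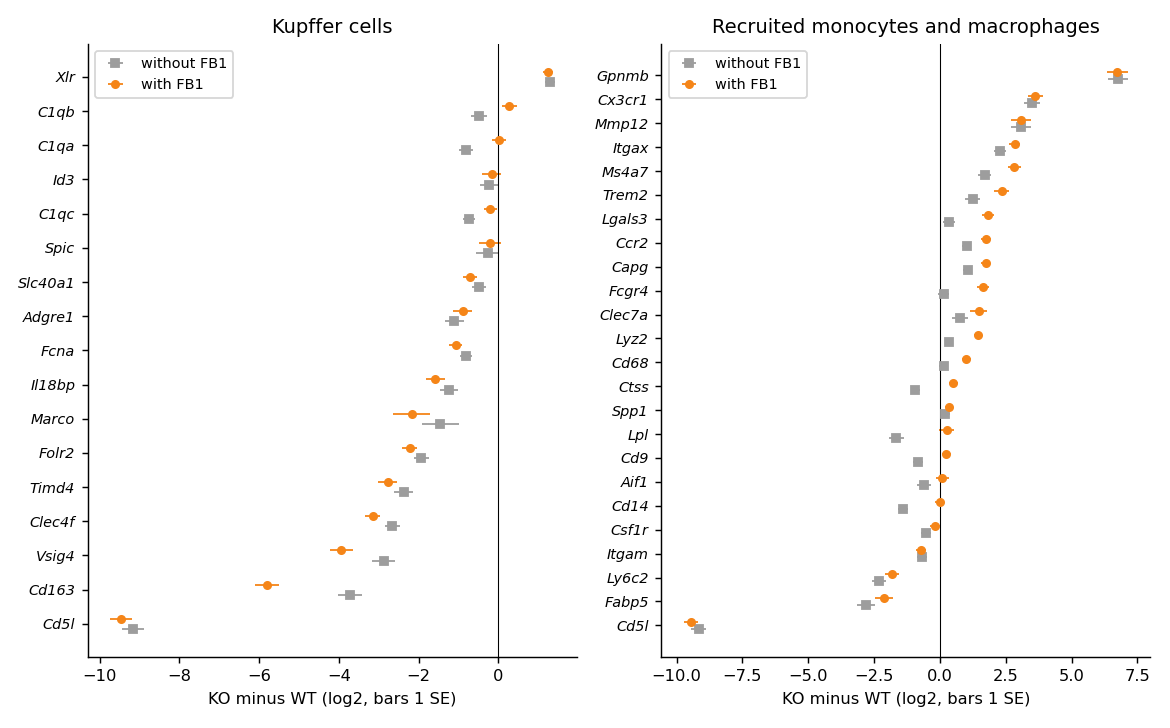
KO minus WT difference (log2) with 1 standard error for the 17 Kupffer cell genes and the 24 genes of recruited macrophages, with FB1 (orange circles) and without (grey squares), 6 arrays in each group. Cd5l, Cd163, Vsig4, Clec4f and Timd4 lie to the left under both treatments. Gpnmb, Cx3cr1, Mmp12 and Itgax lie to the right.

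Lists of other blood cells were counted against the 14.6% higher and 18.3% lower of all genes. Of 15 neutrophil genes 9 were lower and 0 higher with FB1 (median -1.37), and 4 were lower without it. Mpo, the myeloperoxidase of granules, ranged from -0.59 to 1.58 in WT FB1 and from -4.41 to -1.88 in KO FB1 livers (-3.13 ± 0.54). Ctsg, cathepsin G, was 8.90-fold lower (-3.15 ± 0.69), Camp, an antimicrobial peptide, 4.40-fold lower (-2.14 ± 0.39) and the surface marker Ly6g 2.28-fold lower (-1.19 ± 0.16). Of 11 erythroid genes 1 was higher and 3 lower, including Klf1, the erythroid master factor (-1.54 ± 0.20). The haemoglobin genes were not called. Of 15 T and NK cell genes 3 were higher, with Il7r at 1.77 ± 0.14 and Cd52 at 0.75 ± 0.21, and the CD3 chains were not called. Of 10 B and plasma cell genes 4 were higher and 1 lower, among the higher ones Jchain, which links antibody chains (0.73 ± 0.22).

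Of 20 sinusoidal endothelial genes 9 were lower and 0 higher, a count that was 5 when KO FB1 replicate 1, or replicate 4 or 6 of WT FB1, was left out. Stab2, a scavenger receptor of these cells, had levels of 3.75, 4.07 and 4.47 in WT FB1 and 2.51, 3.12 and 3.32 in KO FB1 livers, with no overlap (-1.05 ± 0.13). It was not called without FB1 (-0.34 ± 0.13). Dnase1l3, a secreted nuclease, was lower by -0.98 ± 0.17. Markers of neighbouring tissue were scarce. Of 15 pancreas and adipose symbols 6 passed the filter on dim probes, and Cela2a and Ctrb1 were lower (-1.47 ± 0.26 and -0.31 ± 0.11). The Ctrb1 call was lost under 8 of 36 alternatives.

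Of 28 chemokine, cytokine and adhesion genes 14 were higher and 6 lower, and 9 were higher when probes had to be above background in all 4 groups. Tlr2, a receptor for bacterial lipoproteins, lay between -0.95 and -0.36 in WT FB1 livers and at 0.68 or above in KO FB1 livers, 4.15-fold higher with no overlap (2.05 ± 0.21). Cxcl14 was 4.45-fold higher (2.15 ± 0.22) and not called without FB1 (0.63 ± 0.22). Ccl2, the monocyte chemokine, was 4.01-fold higher with FB1 (SE 0.44 on the log2 scale), and its difference without FB1 was 1.98 ± 0.44. Ccl3 was higher by 2.97 ± 0.34, with 1 of 6 WT FB1 arrays above background.

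Interferon-stimulated genes had list medians of opposite sign with and without FB1. With FB1 18 of 36 were higher and 0 lower (median 0.51), and without FB1 1 was higher and 7 lower (median -0.35). The change of the genotype effect was called as more positive for 13 and more negative for 0. The sizes were modest and the mice varied. Per array, the list median ran from -0.27 (replicate 3) to 1.13 (replicate 5) in KO FB1 and from -0.44 to 0.55 in WT FB1 livers, so the groups overlapped. The count of 18 was 5 when WT FB1 replicate 6 was left out, 7 without KO FB1 replicate 5, 7 also without replicate 2 of WT FB1, and 8 without KO FB1 replicate 2. It was 9 when only the compared groups were fitted and 11 with no filter on dim probes. On the arrays of slide 2 alone the list median was -0.10. Only 1 gene of the list, Xaf1, had KO arrays wholly above the WT arrays.

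Oas1g, an oligoadenylate synthetase of the antiviral response, had levels of -3.39, -2.57 and -1.76 in WT FB1 and -1.86, -1.35 and -0.01 in KO FB1 livers. These overlapped slightly, and the difference was 1.63 ± 0.30 with FB1 and -0.88 ± 0.30 without (change 2.50 ± 0.42, adjusted p = 0.00118). Ifi35 differed by 0.51 ± 0.10 with FB1 and -0.01 ± 0.10 without. Xaf1 was 4.25-fold higher by its brightest probe (2.09 ± 0.23) and far lower by another (-6.73 ± 0.22), so its value rests on the choice of probe. Of 21 MHC genes 6 were lower and 1 higher, with H2-Q4 at -0.43 ± 0.08, H2-K1 at -0.32 ± 0.07 and H2-Q7 at -0.33 ± 0.07. Of 2 other H2-Q7 probes 1 was lower (-0.47 ± 0.09) and 1 higher (0.32 ± 0.10), so its direction is not settled. That lower count was 1 after quantile normalisation and 1 with the authors' deposited values.

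Interferon-type response elements have the core GAAANNGAAA on either strand. Promoters were taken from RefSeq (GRCm38.p6) as the 250 bases before a gene's start, and 25 of the 36 genes matched. The core was present in 12 of these 25 (48.0%), against 936 of 27025 genes in the table (3.46%). It was in 5 of the 13 that were higher in KO FB1 livers (38.5%) and in 7 of the 12 that were not called (58.3%). The stretches with the core from those 5 genes are given to show it, with the core letters or their complement in capitals. They are Oas1g (chr5:120887614-120887661), Oas1a (chr5:120907526-120907575), Isg15 (chr4:156200857-156200926), Rsad2 (chr12:26456533-26456602) and Oas3 (chr5:120777695-120777764), all on the minus strand and written 5′ to 3′ along the gene.

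Oas1g: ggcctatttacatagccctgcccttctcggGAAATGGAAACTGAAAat

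Oas1a: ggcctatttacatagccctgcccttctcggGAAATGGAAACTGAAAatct

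Isg15: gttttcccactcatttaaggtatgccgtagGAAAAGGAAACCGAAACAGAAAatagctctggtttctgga

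Rsad2: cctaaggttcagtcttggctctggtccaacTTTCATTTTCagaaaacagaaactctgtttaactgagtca

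Oas3: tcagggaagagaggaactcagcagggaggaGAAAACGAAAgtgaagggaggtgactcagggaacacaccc

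Oas1g and Oas1a are near-identical copies whose printed stretches share their element, and their probes may read each other. Other motifs searched in the same windows were the LXR direct repeat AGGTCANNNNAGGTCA with at most 2 mismatches, present in 0 of 18 LXR targets and 2.96% of all genes, TGACNNNGC for NRF2, in 5 of 21 NRF2 targets (23.8%) and 11.5% of all genes, and TTCNNNGAA for STAT factors, in 5 of 20 female-biased genes (25.0%), 3 of 15 genes of growth hormone signalling and 8.13% of all genes.

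Genes of fetal liver and liver tumours held some of the largest rises. Of 19 tested 7 were higher and 6 lower, and 4 were higher when probes had to be above background in all 4 groups. H19, an imprinted noncoding RNA that is silenced after birth, had levels of -3.27, -2.26 and -0.99 in WT FB1 and 1.41, 4.01 and 6.48 in KO FB1 livers. The groups did not overlap, KO replicate 1 was highest and replicate 5 lowest, and H19 was 70.1-fold higher (6.13 ± 0.60). Without FB1 its difference was 2.62 ± 0.60, and the change of 3.52 ± 0.85 was called. Dlk1, an imprinted surface protein of hepatoblasts, lay between -5.41 and -3.19 in WT FB1 and between -1.43 and 1.79 in KO FB1 livers. By this brightest probe it was 19.9-fold higher (4.31 ± 0.43), and it was not called without FB1 (0.61 ± 0.43). A second Dlk1 probe gave 1.46 ± 0.44 with FB1 and -1.05 ± 0.44 without, so the size of the rise rests on the probe. Meg3, the noncoding RNA of the same imprinted cluster, was higher with FB1 (2.63 ± 0.36) and more so without (5.14 ± 0.36). Its medians were -1.44 in WT control, 0.53 in WT FB1, 3.93 in KO control and 3.20 in KO FB1 livers. Afp, the alpha-fetoprotein of fetal liver, was higher by 1.06 ± 0.24 with overlapping arrays. Ly6d, a surface protein of epithelia, ranged from 0.03 to 3.03 in WT FB1 and from 3.04 to 5.55 in KO FB1 livers (3.37 ± 0.61), against -0.82 ± 0.61 without FB1.

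Other genes with the largest values belonged to no list. Those far higher in KO FB1 livers were mostly dark in WT FB1 livers. Nat8f5, an acetyltransferase relative, Kcnk10, a potassium channel, H60b, a ligand of NK cell receptors, and Dab1, an adaptor of reelin signalling, were not above background on any WT FB1 array. They were higher by at least 14.1-fold, 13.2-fold, 12-fold and 9.42-fold. Sntg1, a syntrophin, was also higher (fitted difference 4.65 ± 0.32), with 1 of 6 WT FB1 arrays above background, so no fold is given. Zfp697 was higher by one probe (5.21 ± 0.73), while another probe of it gave -0.21 ± 0.14. All 6 were also higher without FB1 by the same probes.

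On the lower side, Wdr72 differed by -7.03 ± 0.41 by its brightest probe, which was above background on 1 of 6 KO FB1 arrays, and by -3.80 ± 0.21 and -2.39 ± 0.23 by a pair of others. Kcnj16, a potassium channel, and Pcolce2, an enhancer of collagen processing, were not above background on any KO FB1 array and were at least 23.9-fold and 35.0-fold lower. Ctse, cathepsin E, was above background on 2 of 6 KO FB1 arrays, which spread from -7.74 to 0.05, and its difference of -5.59 had an SE of 1.31. Ren2 was 118-fold lower (-6.88 ± 0.35), at 1.13 to 3.68 in WT FB1 and -4.56 to -3.75 in KO FB1 livers, and as low without FB1 (-6.75 ± 0.35), whereas Ren1 was not called (0.08 ± 0.43). Ren2 is a second renin gene that 129 strains carry and C57BL/6 mice lack, so its value bears on the strain origin of the 2 genotypes, which cannot be told apart from the receptor loss in these arrays.

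Genes within 5 Mb of the targeted genes, where linked strain segments could lie, were counted. Around Nr1h3, 33 of 97 genes were called with FB1 (34.0%, 14 higher and 19 lower), and around Nr1h2, 59 of 186 (31.7%, 25 higher and 34 lower), against 32.8% of all genes. With so many genes called everywhere, these shares cannot show whether genes near the targets differ by strain. Strain segments were not tested, near the targeted genes or elsewhere in the genome.

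The genes whose genotype effect changed most with FB1 included some that were not in a list. Cib3, a calcium-binding protein, differed by 2.44 ± 0.75 with FB1 and -2.35 ± 0.75 without, a change of 4.79 ± 1.06. Its KO FB1 arrays spread from -1.58 to 3.23 and overlapped the WT arrays, and on slide 1 alone its difference with FB1 was -0.47. Kif5c, a neuronal kinesin, gave 1.76 ± 0.45 and -1.88 ± 0.45, and Hpca, a calcium sensor, 2.45 ± 0.36 and -0.84 ± 0.36. In the other direction Lrtm1, a membrane protein, gave -4.70 ± 0.46 with FB1 and -1.42 ± 0.46 without, and Dmrt2, a transcription factor, -2.42 ± 0.71 and 0.95 ± 0.71, with 3 of 6 KO FB1 arrays above background.

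Other genes named above also had a tested probe that did not share the call of the probe used. Such probes gave -0.33 ± 0.28 for Crp, -0.47 ± 0.23 for Acss2, -0.60 ± 0.23 for Sc5d, -0.21 ± 0.10 for Mup3, 0.10 ± 0.09 for Amdhd1, -0.21 ± 0.14 for Plg and -0.29 ± 0.17 for Stab2. They gave -0.13 ± 0.32 for Ghr, 0.05 ± 0.13 for Abca1, -0.11 ± 0.09 and -0.50 ± 0.22 for Mlxipl, -0.58 ± 0.51 for Cyp7a1, -0.07 ± 0.15 and 0.17 ± 0.19 for Cers6, -0.92 ± 0.40 for Socs2, 0.51 ± 0.38 for Cdkn1a and 0.76 ± 0.30 for Cry1. For these genes the values above are those of the brightest probe, and probe position in the transcript was not analysed here.

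Circadian clock genes, which cycle through the day in liver, were also counted. Of 17 tested 5 were lower and 1 higher with FB1 (median -0.36), against 18.3% and 14.6% over all genes, and 0 were called without it. The lower count was 8 when WT FB1 replicate 3 was left out and 3 when replicate 4 of that group was. Nr1d2, a clock repressor, was lower by -1.20 ± 0.28, and Cry1 was higher by 0.85 ± 0.19. Cry2 was lower by -0.36 ± 0.09, but a pair of other probes were not called (-0.14 ± 0.14 and -0.13 ± 0.18), and the call was lost with the mean of its probes (adjusted p = 0.19 by limma). Nr1d1, which peaks with Nr1d2, was lower by -1.57 ± 0.54 and lost its call under 4 of 36 alternatives.

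**Figure D5:**
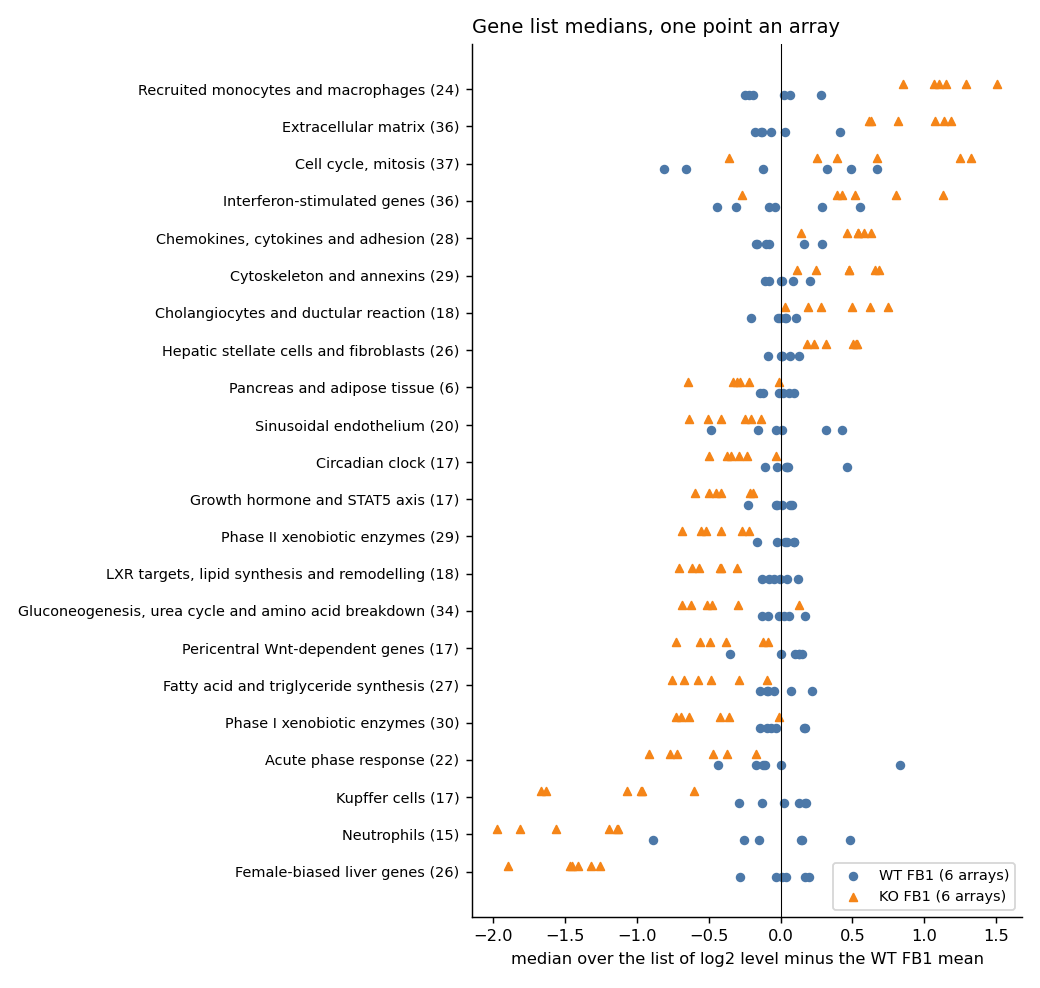
Median of each gene list on each FB1 array, as the log2 level minus the WT FB1 mean of each gene, for the lists whose median difference was at least 0.3 in size, with the number of genes tested in brackets. KO FB1 arrays (triangles) lie apart from WT FB1 arrays (circles) for female-biased, Kupffer, matrix and recruited macrophage genes, and overlap them for mitosis, interferon and acute phase genes.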

How the data were processed

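Per the file headers, the authors scanned each array with Agilent Feature Extraction 10.10.1.1, and the deposited intensity values are single-channel signals after background subtraction, not scaled between arrays. The deposited series table holds the authors' processed log2 values of 33417 probes, of which 32012 were also among the probes tested here. These values served for an alternative fit and not for the main values. limma is named in the submitters' processing notes with no version.

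From the scanner files, log2 processed signals were set relative to each array's 75th percentile, after leaving out outlier spots. Of 56605 probes 33417 were tested: those that the scanner called above background throughout some group, with 4 or more usable arrays per group. A gene took its brightest probe over all arrays. limma 3.58.1 in R 4.3.3 fitted 4 group means over 24 arrays, with Benjamini-Hochberg adjustment over 22068 genes. A lower bound sets an array where a probe was dark at the dimmest signal above background. The number of arrays limits the precision.

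The members and the 39 gene lists (908 symbols, 899 on the array) were chosen with earlier results of these data known. Genes were named by a rule: among genes with a symbol, the 12 largest calls each way, from each list the 3 calls of smallest p, 14 LXR genes and targets and 4 ceramide synthases chosen by name, and the 6 largest each way among genes called in the difference too or called with the same sign in both genotype comparisons. Others are said to be picked out after their values were seen where they appear, or are marker genes added in the same way (Vsig4, Timd4, Marco, Folr2, Trem2, Cx3cr1, Anxa2, Ccl2, Ccl3, Cux2, Socs2, Hmox1, Glul, Sult2a1, Cyp3a44, Cdkn1a, Sox9, Prom1, Ctsg, Nr1d1, Afp, Ren1, Fasn, Scd2, Hamp2, A1bg, Cyp4a12a and Alb). Names came from RefSeq for 15011 genes. On simulated data for KO FB1 against WT FB1 over 22068 genes, 50 genes were changed at each size. The fit recovered 62% of changes of 0.585, 90% of 1, 100% of 2 and 88% of -1 on the log2 scale, with 5 false calls. Far fewer genes were changed there than the 7244 called here, so recovery in these data was not measured. Some results that the rule would name are not reported here.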

Additional observations from a re-analysis of the deposited data

Results flagged for a closer look

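In 24 of 334 groups of 6 arrays (7.19%), 1 array of a named gene stood apart, with a gap to its nearest neighbour that, as a share of the group's range, was above Dixon's critical value for 6 arrays. Chance alone flags about 1 in 20 such groups. The highest KO FB1 array stood apart, by that share of the range, for Nr1h3 (0.704, replicate 6) and Cyp2c39 (0.667, replicate 5). The lowest KO FB1 array stood apart, by that share of the range, for Cyp2b13 (0.73, replicate 6), Nat8f5 (0.639, replicate 2), Scd1 (0.843, replicate 5), Nat8 (0.712, replicate 2), Ddit3 (0.665, replicate 3), Mcm3 (0.779, replicate 5), Stab2 (0.665, replicate 1), Mylip (0.646, replicate 1), Vsig4 (0.709, replicate 4), Ccl2 (0.776, replicate 3) and Hmox1 (0.666, replicate 3). The highest WT FB1 array stood apart, by that share of the range, for Gpnmb (0.661, replicate 1), Zfp697 (0.938, replicate 1), Otc (0.629, replicate 4), Apcs (0.716, replicate 2), Lum (0.667, replicate 1) and Dmrt2 (0.768, replicate 2). The lowest WT FB1 array stood apart, by that share of the range, for Clec4f (0.746, replicate 2), Klf1 (0.70, replicate 1), Cry1 (0.637, replicate 4), Cers6 (0.764, replicate 1) and Folr2 (0.6255, replicate 2).

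The genotype effect differed with and without FB1 for 74 named genes, by limma's test of the difference itself at an adjusted p under 0.05. Values are the log2 genotype difference with FB1 minus that without. They come from the brightest probe of each gene, and the change was not tested for other probes. Another Klf1 probe gave -1.48 ± 0.19 with FB1 and -1.06 ± 0.19 without. Other Prlr probes gave -0.73 ± 0.25 against -0.66 ± 0.25, and -0.96 ± 0.16 against -0.24 ± 0.16. Other Tmsb10 probes gave -1.07 ± 0.20 against -0.49 ± 0.20, and 1.02 ± 0.12 against 0.36 ± 0.12. It was more positive for Cib3 (4.79), Ly6d (4.19), Dlk1 (3.70), Kif5c (3.64), H19 (3.52), Hpca (3.29), Smpd3 (3.09), Dab1 (2.79), Oas1g (2.50), Lox (2.40), Itgad (2.31), Cidea (2.07) and Cidec (1.97). Also more positive for Lpl (1.90), Gpx2 (1.71), Anxa2 (1.64), Tubb2b (1.61), Cxcl14 (1.53), Ddr1 (1.49), Cbr3 (1.24), Afp (1.20), Tlr2 (1.19), Cd52 (1.15), Il7r (1.07), Abcg1 (1.05) and Srxn1 (1.03). Also more positive for Slc7a1 (0.96), Pmaip1 (0.85), Lum (0.78), Ddit3 (0.77), Cygb (0.76), Bicc1 (0.71), Tmsb10 (0.67), Cers5 (0.66), Bax (0.62), Ifi35 (0.52) and Timp1 (0.50). It was more negative for Sult3a1 (-6.88), Sult3a2 (-6.36), Slc1a2 (-3.89), Dmrt2 (-3.36), Lrtm1 (-3.28), Cyp3a44 (-2.79), Meg3 (-2.51), Cyp2b10 (-2.50), Cyp2b9 (-2.38), Cd163 (-2.08), Oat (-2.05) and Hamp2 (-1.76). Also more negative for Ccl24 (-1.76), Thrsp (-1.68), Cd209f (-1.63), Cyp7b1 (-1.53), Glul (-1.40), Klf1 (-1.34), Abcg8 (-1.33), Tk1 (-1.32), Abcg5 (-1.17), Prlr (-1.09), Akr1d1 (-1.04), Tm7sf2 (-1.03) and Cyp27a1 (-0.82). Also more negative for Agxt (-0.72), Stab2 (-0.71), Cyp2e1 (-0.62), Gstt1 (-0.61), Ghr (-0.61), Mlxipl (-0.58), Amdhd1 (-0.54), Otc (-0.52), Plg (-0.51), Cers2 (-0.47), Stat5b (-0.45) and Ebp (-0.38).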

How the results depend on the processing

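Requiring at least a 1.5-fold difference left 3251 genes called with FB1 (1574 higher, 1677 lower), 1825 without FB1 (790 higher, 1035 lower) and 1300 in the difference of the genotype effects, 574 of them more negative. An adjusted p under 0.01 by limma left 4697 (2118 higher, 2579 lower), 1912 (827 higher, 1085 lower) and 623 (358 more positive, 265 more negative). With no filter on dim probes the difference had 1257 calls, 641 more positive and 616 more negative. Leaving out 1 array at a time gave 6190 to 7846 calls with FB1 (2801 to 3293 higher, 3389 to 4583 lower), 2821 to 3527 without FB1 (1310 to 1683 higher, 1506 to 1844 lower) and 1489 to 3030 in the difference (726 to 1270 more positive, 755 to 1760 more negative), with the highest count of the difference without KO FB1 replicate 3.

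Directions reversed for Zfp697 (-0.21 where probes had to be above background in all 4 groups), Anxa4 (-0.028) and Xaf1 (-2.32) with the mean of a gene's probes, and Cib3 (-0.47 on slide 1 alone). Ren1 and Alb, neither of them called, also changed sign: Ren1 was -0.050 with normexp, -0.021 with the authors' values, and between -0.23 and 0.27 when 1 array was left out (-0.23 without WT FB1 replicate 1, -0.10 without replicate 3, 0.27 without replicate 5), and Alb was 0.0033 after quantile normalisation and 0.0076 with the authors' values. Apart from the use of other probes for Zfp697, Anxa4 and Xaf1, the cause was not tested. Slide as a block gave 7343 calls with FB1.

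Replicate numbers are shared between groups, but they did not pair the arrays: deviations of same-numbered FB1 arrays correlated at -0.20 to 0.17, with 1 of 6 pairs over 0.1. With the replicate number as a block there were 6993 calls with FB1, 3181 without FB1 and 1894 in the difference.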
